A study of Saccharomyces cerevisiae with 2 samples.

Results

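The autophagy genes of budding yeast described here are those for which a probe set of the array was annotated with a single symbol of Saccharomyces cerevisiae made of ATG and a number. There were 34 of them among 5449 genes measured, each with 1 probe set. The gene table holds 37 such genes, and ATG42, ATG44 and ATG45 had no probe set named for them and were not analysed here. The genes were split by textbook role into 5 genes of the initiation complex, 8 of ATG8 and ATG12 conjugation, 10 of membrane supply, 8 receptors and adaptors of selective autophagy, 2 that act inside the vacuole or at its membrane, and ATG26. These roles were assigned with earlier results of these data known.

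Autophagy carries cytoplasm and organelles to the vacuole in a double membrane that grows, closes and fuses with the vacuolar membrane. In budding yeast a kinase complex starts the process, ubiquitin-like proteins are attached to the growing membrane, vesicles and lipid transfer feed it, and receptors tie it to chosen cargo such as mitochondria, peroxisomes or the endoplasmic reticulum. Most of the proteins that do this carry the name ATG and a number. The process is kept low in well-fed cells by TORC1 and protein kinase A, which restrain the starting kinase complex.

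The study asked which transcripts differ when wild-type yeast is kept on less glucose, a moderate form of dietary restriction (DR), compared with ad libitum (AL) medium. The haploid strain BY4742 (mating type alpha, with deletions in HIS3, LEU2, LYS2 and URA3 on both media) was grown for 12 hours at 30°C in yeast extract and peptone with 0.5% glucose for DR or 2.0% glucose for AL, to a density (OD600) of 0.85 to 0.99. Each medium was measured on 1 Affymetrix GeneChip Yeast Genome 2.0 array, so no difference below has a replicate check and no test was run. A gene was counted as different where the signals of the arrays were more than 2-fold apart, the threshold of the study's methods. An array reads the whole culture, so more transcript per cell and more cells holding the transcript cannot be told apart.

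Which array belongs to which medium rests on the submitters' labels, and the resulting direction is opposite to that of the study's tables, which list ATG11 and ATG15. The study also counts more genes up than down under DR at 2-fold, whereas here 1326 genes were higher on the AL-labelled array and 1116 on the DR-labelled array. It further lists autophagy among the terms of genes raised by both DR and spermidine. Each array is therefore called by its label, and exchanging the labels would turn every sign and direction below. Genes known to be repressed by glucose were high on the AL-labelled array: JEN1, the lactate permease, had a signal of 66.6 on the DR-labelled array and 4160 on the AL-labelled array, and PCK1, a gluconeogenic enzyme, had 115.2 and 3678. HXT3, a glucose transporter of cells with ample sugar, had 5849 and 141.2. As a background, 10 genes deleted or silent in the strain had median signals of 23.45 on the DR-labelled array and 43.35 on the AL-labelled array. The highest of them was STE6 on both arrays, with 129.4 and 281.6. This maximum is the level used below, so it rests on 1 gene. Of 4 markers of alpha cells, 4 lay above this level on the DR-labelled array and 3 on the AL-labelled array, the exception being MF(ALPHA)2 at 222.6. All 4 were higher on the DR-labelled array, from 5.16-fold for SAG1 to 23.2-fold for MF(ALPHA)2. With its low signal raised to the background level, MF(ALPHA)2 was 18.4-fold higher. The cause of this difference was not tested.

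Autophagy genes lay well above the signal of unrelated probes. The array also carries 17 probe sets annotated as atg genes outside the S. cerevisiae table, which serve as a background made of the same kind of gene. Their highest signals were 12.2 on the DR-labelled array and 16.2 on the AL-labelled array, with medians of 2.00 and 1.60, and all 34 genes lay above both maxima. A stricter level is the maximum of the silent and deleted genes, which is the signal of STE6. Against it, 2 genes (ATG10 and ATG16) lay under background on both arrays. Another 4 (ATG2, ATG13, ATG17 and ATG23) lay under it on the AL-labelled array alone. For these 6 genes the size of the ratio is less certain than for the others. The direction is unsettled too for ATG10 and ATG16. The same holds for ATG2, whose ratio turned with low signals raised to this level.

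**Figure D1:**
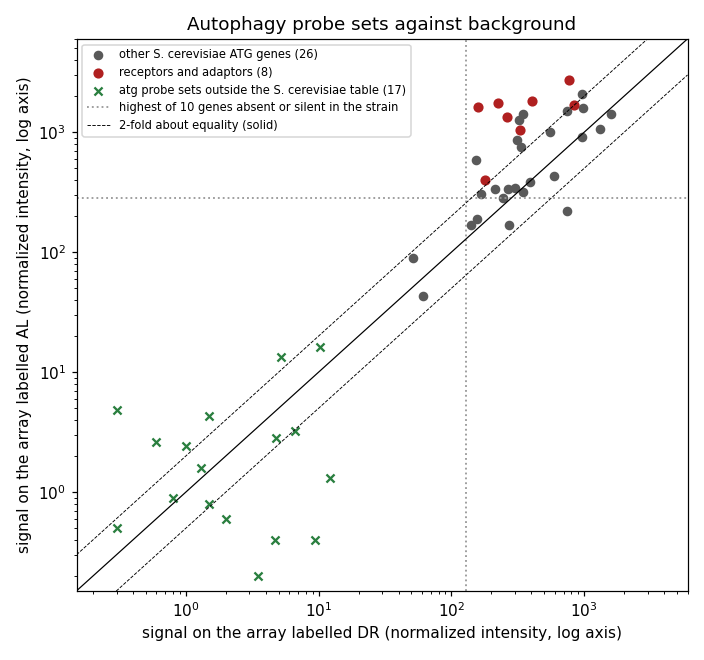
Signals of autophagy probe sets on the DR-labelled array (x axis) and the AL-labelled array (y axis), both in normalized intensity on log axes, with 1 point for each gene or probe set. The receptors and adaptors (red) sit above the upper 2-fold line, and the 17 atg probe sets outside the S. cerevisiae table (green crosses) reach no further than 12.2 and 16.2.

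Most autophagy genes (25 of 34) gave the brighter signal on the AL-labelled array, beside 2959 of all 5449 genes. The receptors and adaptors of selective autophagy had the lowest median ratio of any role. Of the 34, 15 were more than 2-fold higher on the AL-labelled array, where 24.3% of all genes were, and 1 was more than 2-fold higher on the DR-labelled array, where 20.5% of all genes were. The remaining 18 lay within 2-fold. At 1.5-fold the counts were 20 of 34 (35.7% of all genes) and 2 of 34 (29.3% of all genes). On the log2 scale, the ratio of the DR-labelled over the AL-labelled signal had a median of −0.83 for the autophagy genes and −0.12 for all genes. By role, the medians were −1.99 for receptors and adaptors, −0.98 for the 2 vacuolar genes (ATG15 and ATG22), −0.57 for conjugation, −0.27 for the initiation complex and −0.24 for membrane supply, with ATG26 alone at −0.71. Without the receptors and adaptors, 7 of the other 26 genes passed 2-fold towards the AL-labelled array, beside 24.3% of all genes. The median of these 26 was −0.30. Values near the threshold are the least secure: ATG33, ATG21 and ATG8 lay just past it at 2.02-fold, 2.04-fold and 2.15-fold, and ATG3, ATG4 and ATG16 just short of it at 1.81-fold, 1.80-fold and 1.75-fold.

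**Figure D2:**
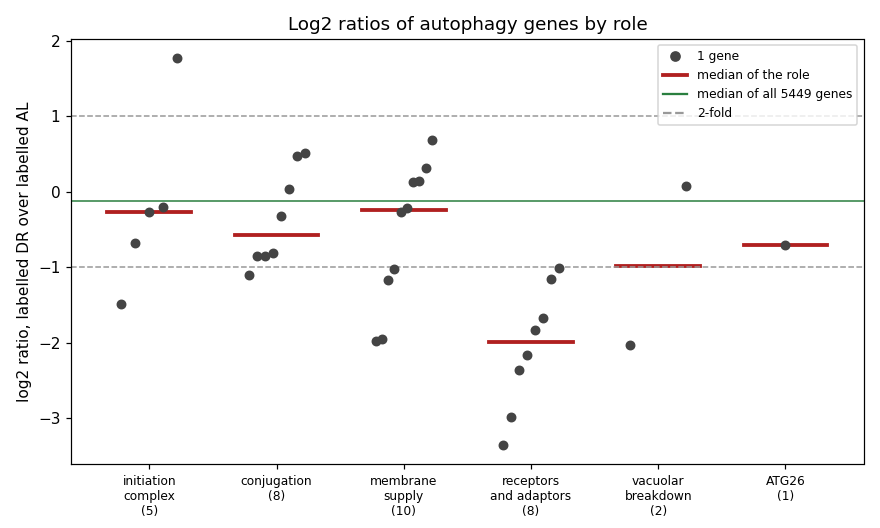
Log2 ratio of the signals, labelled DR over labelled AL (y axis), for each of the 34 genes by role (x axis, number of genes in brackets). Red bars are role medians, from −1.99 for receptors and adaptors to −0.24 for membrane supply. All receptors and adaptors lie below the lower 2-fold line, and the single gene above the upper one is ATG13.

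Receptors recognise a cargo and hold it against the membrane through ATG8 and the scaffold ATG11. All 8 genes of this group were more than 2-fold higher on the AL-labelled array, where 24.3% of all genes were. Of them, 6 were more than 3-fold higher, where 12.7% of all genes were. ATG33, counted in the group though ATG32 is the mitochondrial receptor, passed at 2.02-fold. After rescaling of the arrays, 7 of the 8 stayed past 2-fold, with no share of all genes given for these settings. The order of ratios ran from receptors of the endoplasmic reticulum and peroxisomes to the proteins that act on mitochondria. ATG39, which marks the nuclear envelope for removal, gave a signal of 159.8 on the DR-labelled array and 1634 on the AL-labelled array, a 10.2-fold difference, and was number 111 of 5449 genes counted from the most AL-sided ratio. ATG40, the receptor for the outer parts of the endoplasmic reticulum, had 259.9 and 1333, a 5.13-fold difference. Both receptors of this organelle were thus among the 3 autophagy genes with the highest ratio of labelled AL over labelled DR.

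The third of these was ATG36, the peroxisome receptor, with 222.7 on the DR-labelled array and 1763 on the AL-labelled array, a 7.92-fold difference. ATG36 is anchored to peroxisomes by PEX3, which had 598.6 and 1415, a 2.36-fold difference the same way. Among all 25 PEX genes, which build peroxisomes, 11 were more than 2-fold higher on the AL-labelled array and 0 on the DR-labelled array (24.3% and 20.5% of all genes), with a median log2 ratio of −0.76. The receptor (log2 ratio −2.99) stood further towards the AL-labelled array than the median PEX gene. It lay within the range of the PEX genes, whose most AL-sided log2 ratio was −3.86. PEX3 was named after its value was seen.

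ATG32 and ATG33 act in the removal of mitochondria, ATG32 as the receptor and ATG33 as another protein of the mitochondrial outer membrane. ATG32 had a signal of 180.5 on the DR-labelled array and 403.0 on the AL-labelled array, a 2.23-fold difference, and ATG33 had 834.5 and 1684. These were the 2 smallest differences of the group. ATG33 came within 2-fold after median centring of the log2 ratios, after quantile normalization and after removal of the trend of the ratio on signal.

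The cytoplasm-to-vacuole targeting (Cvt) pathway brings a few vacuolar enzymes to the vacuole in growing cells, with ATG19 as receptor. ATG19 had 769.2 on the DR-labelled array and 2729 on the AL-labelled array, a 3.55-fold difference. ATG34, its paralog, which acts as receptor during starvation and is the gene next to ATG19 on chromosome XV, had 403.6 and 1807, a 4.48-fold difference. The cargo genes did not stand together: AMS1, the alpha-mannosidase, had 505.6 and 1476, whereas APE1, aminopeptidase I, had 4935 and 3038, and APE4, an aspartyl aminopeptidase, had 2326 and 1999. ATG11, which joins receptor-bound cargo to the starting machinery, had 328.0 and 1041, a 3.17-fold difference. CUE5, a receptor for ubiquitin-marked proteins that is not named ATG, had 1844 and 3573, within 2-fold.

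**Figure D3:**
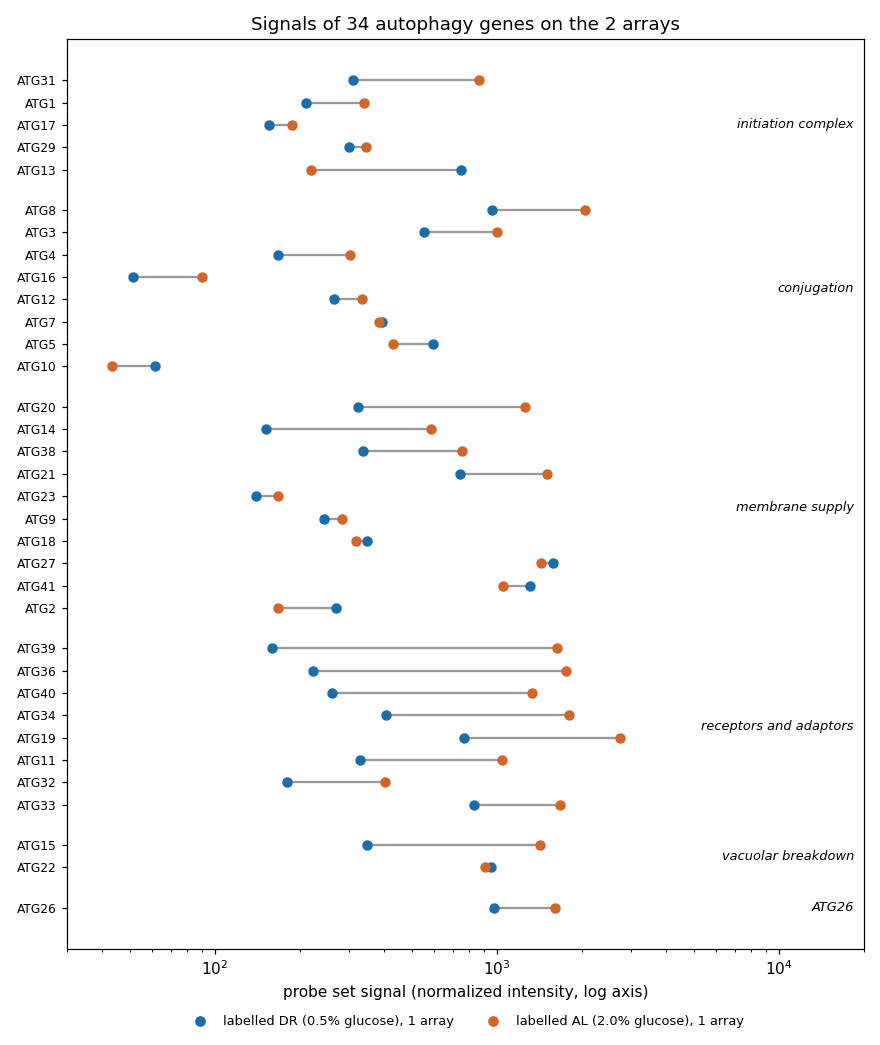
Signal of each autophagy gene on the DR-labelled array (blue) and the AL-labelled array (orange), in normalized intensity on a log axis, by role and within a role by ratio. The 4 longest lines are those of ATG39 (159.8 and 1634), ATG36, ATG40 and ATG34, and ATG13 (747.2 and 219.5) is the gene with a long line in the opposite direction.

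In the initiation complex the subunits differed in direction. The kinase ATG1 is held by ATG13 to a scaffold of ATG17, ATG29 and ATG31. ATG13, a subunit on which TORC1 and protein kinase A act, had 747.2 on the DR-labelled array and 219.5 on the AL-labelled array. With this 3.40-fold difference it was the only autophagy gene past 2-fold in that direction. Its signal on the AL-labelled array lay under the level of the silent genes, and with that signal raised to this level the ratio was 2.65. ATG31 stood the other way with 309.7 and 866.0, a 2.80-fold difference.

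The other 3 subunits lay within 2-fold. ATG1 itself had 211.3 on the DR-labelled array and 338.7 on the AL-labelled array. ATG17 had 155.9 and 188.5, and ATG29 had 299.6 and 343.5. The scaffold thus held 1 gene past the threshold, ATG31. Its log2 ratio minus that of ATG29 was −1.29, and minus that of ATG17 it was −1.21, or −0.63 with the low AL-labelled signal of ATG17 raised to the level of the silent genes. ATG13 and ATG1, which bind each other, were 2.45 apart on the log2 scale, or 2.09 with the low signal of ATG13 raised in the same way.

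Conjugation attaches ATG8 to phosphatidylethanolamine and ATG12 to ATG5. ATG8 itself, the membrane-bound tag of the autophagosome and the partner of the receptors, had 962.8 on the DR-labelled array and 2066 on the AL-labelled array. It was the only gene of the 8 past 2-fold, and it came just within 2-fold after median centring (log2 ratio −0.98) and after removal of the trend on signal (−0.97). The next 2 genes of its branch lay just under the threshold, ATG3, the conjugating enzyme of ATG8, with 552.9 and 999.8, and ATG4, the protease that trims and releases ATG8, with 167.8 and 302.7. ATG7, the activating enzyme shared by both branches, had 392.0 and 383.6.

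The ATG12 branch had ratios on either side of 1. ATG12 had 265.4 on the DR-labelled array and 333.1 on the AL-labelled array, and ATG5, to which it is joined, had 595.4 and 429.7. ATG16, which binds the joined pair, had 51.4 and 90.2, and ATG10, the conjugating enzyme of ATG12, had 61.5 and 43.1. ATG16 and ATG10 were the 2 genes under the level of the silent genes on both arrays, so their ratios set no direction.

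Membrane supply held 4 genes more than 2-fold higher on the AL-labelled array, where 24.3% of all genes were, and 6 within 2-fold. Its median log2 ratio of −0.24 lay near the −0.12 of all genes. ATG9, the transmembrane protein of the vesicles that seed the membrane, had 243.6 on the DR-labelled array and 282.1 on the AL-labelled array. Its transport partners ATG23 and ATG27 had 140.1 and 168.2, and 1581 and 1431. ATG41, which acts in the delivery of ATG9, had 1310 and 1056, and ATG2, which transfers lipid into the membrane, had 270.3 and 168.0, the latter under the level of the silent genes. With low signals raised to that level the log2 ratio of ATG2 went from 0.69 to −0.06.

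The genes past the threshold included ATG14 and ATG38, the subunits found only in the autophagy form of the phosphoinositide kinase complex. ATG14 had 152.1 on the DR-labelled array and 586.3 on the AL-labelled array, a 3.85-fold difference, and ATG38 had 335.0 and 753.8, a 2.25-fold difference. The subunits that this complex shares with the vacuolar sorting form lay within 2-fold: the kinase VPS34 had 795.4 and 673.7, its partner VPS15 had 511.6 and 316.1, and VPS30 (also known as ATG6) had 470.6 and 541.6. VPS38, which replaces ATG14 in the sorting form and was named after its value was seen, had 278.6 and 339.2. On the log2 scale ATG14 lay −2.19 and ATG38 −1.41 from VPS34.

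A similar split was seen in pairs that bind phosphoinositides. ATG20, a sorting nexin, had 322.5 on the DR-labelled array and 1266 on the AL-labelled array, a 3.92-fold difference, while SNX4 (also known as ATG24), the nexin it pairs with, had 537.2 and 636.1. ATG21, which helps to place the ATG8 machinery, had 740.3 and 1511, whereas its relative ATG18, which works with ATG2, had 346.2 and 316.7. ATG21 came within 2-fold after median centring, after quantile normalization and after removal of the trend on signal. ATG38 came within 2-fold after the last of these.

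**Figure D4:**
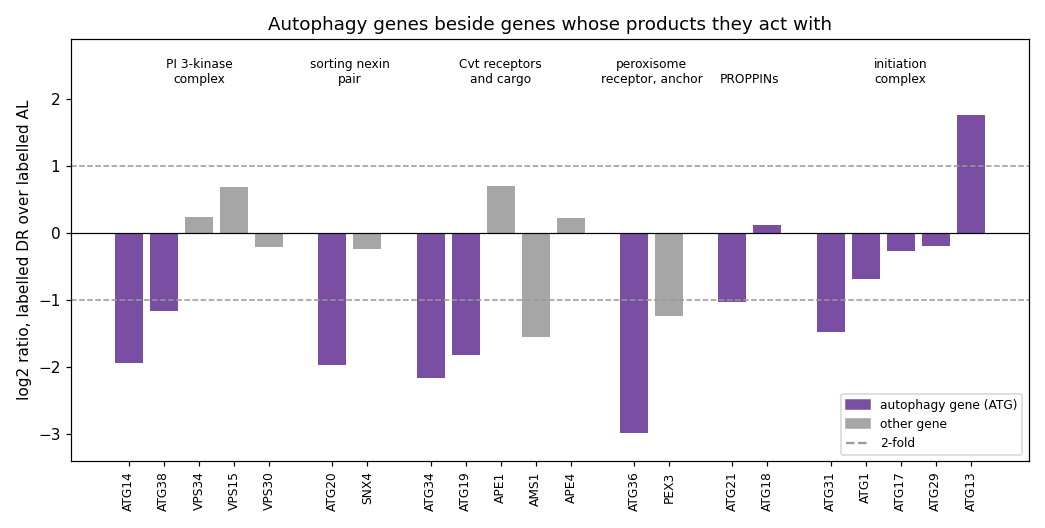
Log2 ratio, labelled DR over labelled AL (y axis), of autophagy genes (purple) and of other genes (grey) whose products act with them, 1 bar for each gene and no error since each medium had 1 array. ATG14, ATG38 and ATG20 lie below the lower 2-fold line, and VPS34, VPS15, VPS30 and SNX4 lie inside the 2-fold lines.

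At the end of the pathway, ATG15, the lipase that opens the delivered bodies inside the vacuole, had 347.7 on the DR-labelled array and 1427 on the AL-labelled array, a 4.10-fold difference. ATG22, an amino acid exporter of the vacuolar membrane, had 958.7 and 908.4. Of the vacuolar proteases, which digest the cargo, PEP4 had 6840 and 7098, PRB1 had 2489 and 3432, and PRC1 had 7903 and 8664, all within 2-fold. CPS1, a carboxypeptidase, stood the other way with 2750 and 1046. The lipase was thus the only one of these 6 genes that was more than 2-fold higher on the AL-labelled array. ATG26, a sterol glucosyltransferase that is needed for the removal of peroxisomes in Komagataella phaffii, had 982.2 and 1605, within 2-fold.

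Genes that act with the autophagy machinery but carry other names were listed by role, and 53 of them were analysed. Of these 53, 11 were more than 2-fold higher on the AL-labelled array and 2 on the DR-labelled array, neither a larger share than the 24.3% and 20.5% of all genes, with a median log2 ratio of −0.32. For the fusion of the finished autophagosome with the vacuole, 2 of 7 genes were past 2-fold. MON1, part of the factor that activates the GTPase YPT7, had 282.6 and 1011, and YKT6, the SNARE of the autophagosome, had 1347 and 2803. CCZ1, the other part of that factor, had 603.8 and 908.1, and YPT7 had 2219 and 3412. The 6 genes of membrane traffic all lay within 2-fold. As a wider comparison, 5 of 40 genes named VPS, most of which sort proteins to the vacuole, were more than 2-fold higher on the AL-labelled array and 3 on the DR-labelled array (median −0.29), smaller shares than the 24.3% and 20.5% of all genes. No test of the difference between these lists and the autophagy genes was possible with 1 array for each medium.

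Among regulators of ATG transcription, 6 of 15 passed 2-fold with the brighter signal on the AL-labelled array and 0 on the DR-labelled array, beside 24.3% and 20.5% of all genes (median −0.71). RPH1, a histone demethylase that represses ATG genes, had 378.6 on the DR-labelled array and 2790 on the AL-labelled array, a 7.37-fold difference, and GIS1, its relative, had 1472 and 3209. PHO23, another repressor of ATG genes, had 711.3 and 1502. On the activating side, GLN3, a GATA factor of nitrogen starvation, had 353.7 and 976.6, MSN2, a stress factor, had 557.9 and 1615, and HAP2, which binds DNA in the HAP activator of respiration, had 563.9 and 1358. Genes known as repressors and genes known as activators were thus both found among the 6. UME6, which represses ATG8, had 792.3 and 1283, and MSN4, the paralog of MSN2, had 1227 and 936.8, both within 2-fold.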

How the data were processed

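The authors deposited a linear intensity for each probe set of 2 Affymetrix GeneChip Yeast Genome 2.0 arrays, normalized for them by a service laboratory with Affymetrix's statistical algorithms. For the version, the target level and any scaling between arrays, nothing was given in the sources used here. The intensities ran from 0.1 to 10739 (labelled DR) and from 0 to 10502 (labelled AL).

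Of 10928 probe sets, 7244 had 1 symbol in the platform annotation, which can be old, 1 had several and 3683 had none. By gene ID, 5498 named a gene of the RefSeq R64 table of S. cerevisiae, and averaging the log2 signals of probe sets for the same gene gave 5449 genes. For each gene the log2 ratio of labelled DR over labelled AL was computed. With 1 array for each medium no test or interval could be made, and precision is limited by the number of arrays.

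The members, roles and gene lists were chosen with earlier results of these data known. Every member is named, the other listed genes mainly where past 2-fold or where they pair with a member. The high background is the highest signal of 10 genes deleted or silent in the strain, that of STE6 on both arrays. The low one is the 95th percentile of 1746 probe sets naming a gene outside the table. Alternatives were median centring, quantile normalization of the full arrays, subtraction of a lowess fit of the ratio on signal (span 0.3), raising low signals to either background, leaving out genes under the high one, adding the median silent signal, the brightest probe set, other fold thresholds, means for medians, and current symbols for platform symbols. On simulated arrays of 5449 genes with 100 genes raised and 100 lowered, the procedure recovered 100 and 100. The simulated shifts were set well past the threshold with small noise. This recovery therefore checks the code and gives no measure of the precision of the real arrays. Planned descriptions of promoter motifs and protein features were not made, since no sequences were used here. Python 3.11.15 was run with statsmodels 0.14.6, pandas 2.3.3, matplotlib 3.10.9 and numpy 2.4.6.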

Additional observations from a re-analysis of the deposited data

How the results depend on the processing

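No paired analysis was possible because each medium had 1 array. The count of autophagy genes higher on the AL-labelled array was 15 at 2-fold, 20 at 1.5-fold and 9 at 3-fold, and the count higher on the DR-labelled array was 1, 2 and 1. The 2 genes of the latter at 1.5-fold were ATG13 and ATG2. Of all genes, 24.3%, 35.7% and 12.7% were higher on the AL-labelled array at these thresholds, and 20.5%, 29.3% and 11.5% on the DR-labelled array. At 2-fold the count of autophagy genes higher on the AL-labelled array was 12 after median centring and 13 with quantile-normalized arrays. It was 11 without the trend on signal and 18 with signals raised to the high background. No share of all genes is set beside these alternative counts, so they show which calls changed and not a difference from all genes. The calls lost were those of ATG8, ATG21, ATG33 and ATG38. Those of ATG10, ATG16 and ATG23 were gained only with signals raised to a background that is itself higher on the AL-labelled array. This step sets any gene under that background on both arrays, as ATG10 and ATG16 were, to 2.18-fold towards the AL-labelled array. Receptors and adaptors more than 2-fold higher on the AL-labelled array numbered 7 or 8 under every alternative at 2-fold, also without a share of all genes. The median log2 ratio of all autophagy genes ran from −1.01 to −0.68 over 9 alternatives, and that of receptors and adaptors from −2.07 to −1.77. The initiation complex ran from −0.68 to −0.15, conjugation from −0.85 to −0.37 and membrane supply from −0.61 to −0.12. The median of all genes moved too, from −0.39 with signals raised to the high background to 0.0 after median centring. Part of each range is thus a shift shared by all genes. ATG13 kept a log2 ratio of 1.41 or more. Taking the brightest probe set or current symbols changed nothing for these genes, each of which has 1 probe set. No ratio has a replicate check, and all directions rest on the array labels.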

Other observations

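Among 14 measured genes of TORC1 and other kinases upstream of autophagy, 2 were more than 2-fold higher on the AL-labelled array, 1 was more than 2-fold higher on the DR-labelled array and 11 lay within 2-fold, beside 24.3% and 20.5% of all genes past 2-fold in these directions (median log2 ratio −0.12, that of all genes being −0.12). TCO89, a subunit of TORC1, had a signal of 456.0 on the DR-labelled array and 1167 on the AL-labelled array, and RIM15, a kinase of the entry into quiescence, had 269.9 and 551.6. KOG1, another subunit of TORC1, stood the other way with 561.6 and 233.8, a 2.40-fold difference that became 1.99-fold with the low AL-labelled signal raised to the level of the silent genes. The kinase genes TOR1 (325.5 and 365.4), TOR2 (629.8 and 644.6) and SCH9 (667.9 and 704.5) had close signals on both arrays.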
